A study of Mus musculus with 6 samples.

Results

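The 10 genes followed here encode nuclear receptors that read xenobiotics, oxysterols, fatty acids, thyroid hormone and estrogen, and they were measured in mouse liver RNA on 6 Affymetrix arrays. They were taken by symbol: Nr1i2, Nr1i3, Nr1h2, Nr1h3, Rxra, Ppard, Pparg, Esr1, Thrb and Nr2f6, with every probe set that the platform annotation maps to exactly 1 of them. This gave 16 of the 45037 probe sets, for 9 of the 10 genes, out of 18193 genes with a probe set. Nr1h2 had no probe set in the annotation used, so its RNA is not analysed here and it enters only the search of bases before transcription starts. Left out was 1 further probe set that named both Ppard and another gene.

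The first group was made of 3 livers of mice that got an AAV8 vector with Nfkbiz, which encodes the atypical nuclear IκB protein IκBζ, and the second of 3 livers that got the same vector type with luciferase. AAV8 is an adeno-associated virus serotype that reaches hepatocytes efficiently from the blood, and the labels do not name the promoter in the vector. All 6 livers came from C57BL/6 mice that received their vector intravenously, waited 4 weeks, and then ate CDAHFD, a high-fat diet without choline and with a defined amino acid mix, which produces fatty liver, for 4 weeks. Both groups therefore carried a vector and the diet, and no chow-fed or vector-free liver is part of the comparison; age and sex are not stated in the labels.

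Nuclear receptors are transcription factors that bind small lipophilic ligands and then exchange corepressors for coactivators on their target genes. Most of the receptors described here bind DNA as a heterodimer with an RXR protein, at repeats of a short half-site. In hepatocytes they set the level of drug-metabolising enzymes, cholesterol export, lipogenesis and fatty acid oxidation, and several are also made in other liver cells.

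The arrays were first checked on the gene in the vector. Nfkbiz probe set 1448728_a_at read 4424, 4073 and 2006 on the Nfkbiz arrays, against 221, 229.5 and 179.7 on the luciferase arrays (log2 difference 3.98 ± 0.27 SE, limma adjusted p = 9.01e-04). The other probe sets of the gene, 1417483_at and 1457404_at, had differences of 0.30 ± 0.19 and -0.89 ± 0.54 and did not pass (limma adjusted p = 0.603 and 0.594). Hepatocyte marker genes had a summed intensity of 225439 to 270472 on the Nfkbiz arrays and of 234277 to 275369 on the luciferase arrays. Of the 8 measured, limma called 1 lower, Tat, a hormone-responsive enzyme gene of tyrosine breakdown (-1.17 ± 0.15, limma adjusted p = 0.0289, and between 0.0127 and 0.427 over the alternatives). At an unadjusted p under 0.05, 0 were higher and 2 lower, where 6.65% of all genes tested were lower. The second was Hnf4a, at -0.35 ± 0.14 by its brightest probe set (limma adjusted p = 0.431). On the second principal component, with 23.9% of the variance, the third luciferase array scored 76.1 and all other arrays between -22.8 and -8.47. Values are MAS5 intensities on a linear scale, and each difference is the log2 value of AAV8-Nfkbiz less that of AAV8-luciferase, with limma's moderated standard error (SE). For the ratios of receptor pairs the SE was taken from the variances of the groups, without limma. MAS5 intensities of different probe sets are not read as relative amounts of RNA. Sums over marker genes and ratios of receptor pairs are compared between arrays only, and the brightest genes weigh most in a sum.

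No receptor probe set passed the threshold of 0.05 on the adjusted p. The filter on low intensity left 14 of the 16 probe sets, covering all 9 genes, and limma called 0 of the 14, where it called 0.0703% of all 27022 probe sets tested. At an unadjusted p under 0.05 limma found 3 of the 14, all with lower intensity in the Nfkbiz livers, where 10.6% of all probe sets tested reached that level, made up of 6.47% lower and 4.14% higher. Groups without overlap were found for 4 of the 14, 1 higher and 3 lower, against 16.7% of all probe sets, 7.03% higher and 9.69% lower. Those 4 were the probe sets of the pregnane X receptor gene Nr1i2, 1 probe set of Rxra and the liver X receptor gene Nr1h3. The median difference of the 14 was -0.08, beside -0.02 for all probe sets tested, and the median size of a difference regardless of sign was 0.22 for the 14 and 0.22 for all. Without the third luciferase array 0 of 14 were called and the median was -0.20.

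**Figure D1:**
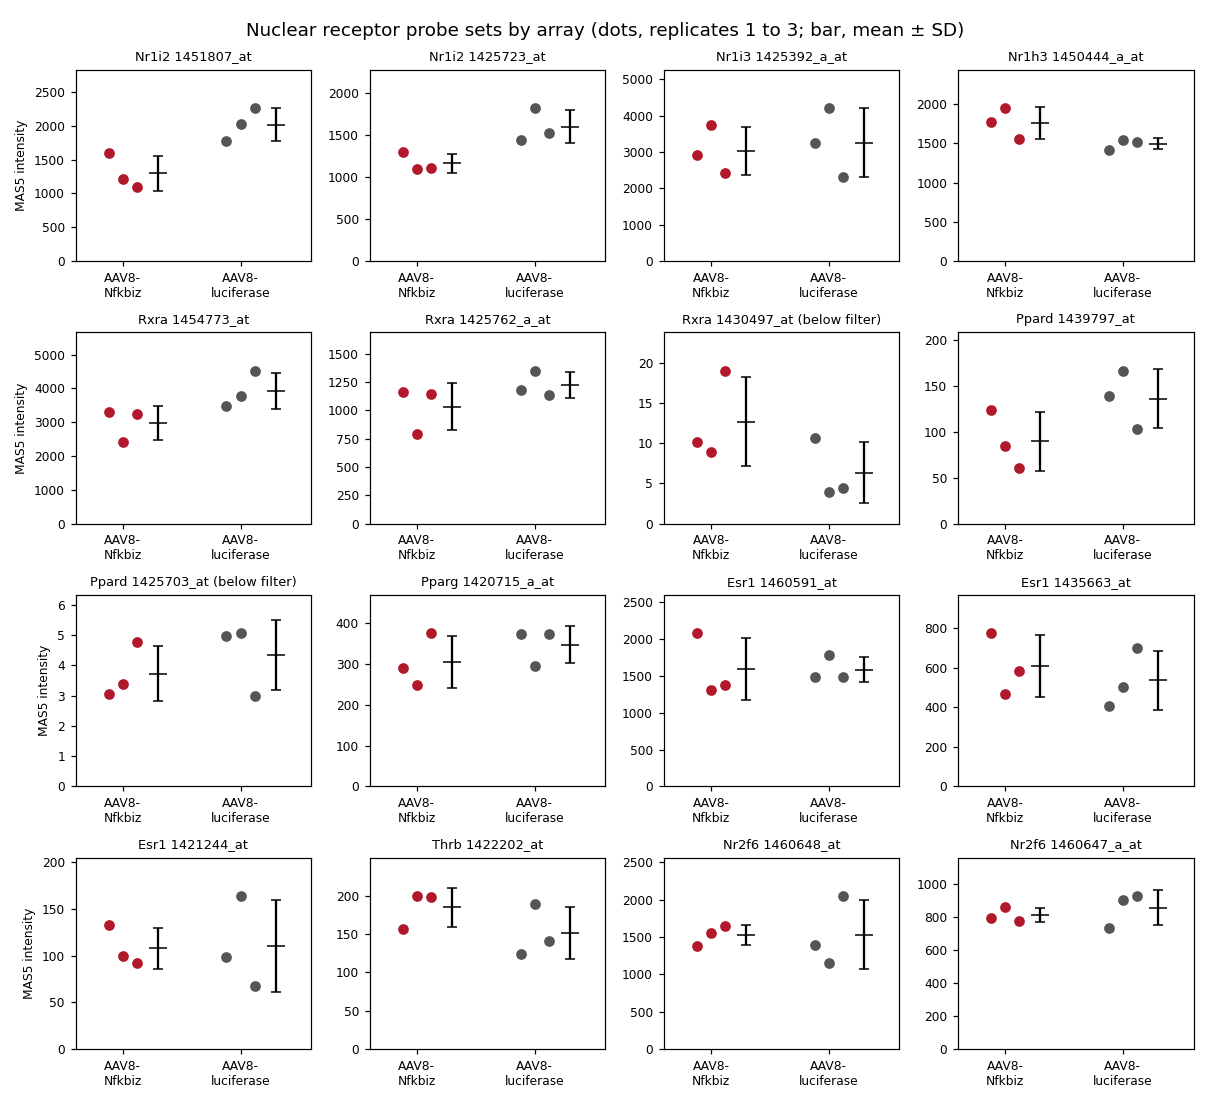
MAS5 intensity (linear, each axis from 0) of the 16 probe sets on every array, AAV8-Nfkbiz at the left and AAV8-luciferase at the right of each panel; dots are arrays in the order of their replicate numbers and bars are means ± SD (n = 3). The groups do not overlap in 4 of the panels that were tested, both of Nr1i2, Rxra 1454773_at and Nr1h3.

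To show the sequence context of the genes whose arrays did not overlap, the 250 bases before a transcription start of Nr1i2, Nr1h3 and Rxra are given below. They come from RefSeq on GRCm38.p6, 5′ to 3′ on the gene's strand, and capitals mark matches on either strand to the nuclear receptor half-site AGGTCA or the CCAAT box CCAAT. The windows are chr16:38294825-38295074 (minus strand) for Nr1i2, chr2:91195117-91195366 (minus strand) for Nr1h3 and chr2:27709042-27709291 (plus strand, the second of 2 annotated Rxra starts) for Rxra.
Nr1i2: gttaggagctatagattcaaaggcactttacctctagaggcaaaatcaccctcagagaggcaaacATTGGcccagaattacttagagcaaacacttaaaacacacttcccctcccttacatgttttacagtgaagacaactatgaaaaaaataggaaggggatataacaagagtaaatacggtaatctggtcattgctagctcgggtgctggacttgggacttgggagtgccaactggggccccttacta
Nr1h3: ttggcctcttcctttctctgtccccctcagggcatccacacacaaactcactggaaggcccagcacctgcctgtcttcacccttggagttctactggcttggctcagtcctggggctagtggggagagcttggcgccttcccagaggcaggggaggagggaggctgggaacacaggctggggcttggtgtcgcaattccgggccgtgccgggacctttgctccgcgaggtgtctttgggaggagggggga
Rxra: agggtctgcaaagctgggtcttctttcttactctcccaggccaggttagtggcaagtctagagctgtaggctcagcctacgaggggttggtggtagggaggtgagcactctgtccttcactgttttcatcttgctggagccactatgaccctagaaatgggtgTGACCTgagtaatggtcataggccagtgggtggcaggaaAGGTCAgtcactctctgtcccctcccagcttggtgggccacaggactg
Searched on both strands, the half-site AGGTCA lay in 4 of the 16 windows of the 10 receptor genes, those of Rxra, Pparg and Thrb, beside 14.0% of 32851 such windows of all genes. In the Rxra window shown it began 87 and 48 bases before the start, while the window of the other Rxra start held no match to any motif searched, and no half-site match was found in the windows of Nr1i2 or Nr1h3. The CCAAT box lay in 5 of the 16 windows, beside 33.8% of all, and in Nr1i2 it began 185 bases before the start. The E-box CACGTG lay in 2 windows, of Nr1i3 and Thrb, beside 6.02% of all, and a NF-κB consensus site in 1, of Nr2f6, beside 7.25% of all. Several genes have more than 1 window, and windows of neighbouring starts overlap. These matches describe the letters only.

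Nr1i2 encodes the pregnane X receptor PXR, which senses drugs, bile acids and steroids and switches on detoxifying enzymes and transporters. Its probe set 1451807_at read 1591, 1207 and 1092 on the Nfkbiz arrays, against 1768, 2021 and 2262 on the luciferase arrays. The lowest luciferase array was above the highest Nfkbiz array. The group means were 1297 ± 261 in Nfkbiz livers and 2017 ± 247 in luciferase livers (SD, n = 3 each), a ratio of 0.638 on the fitted scale with a log2 difference of -0.65 ± 0.17 (95% interval -1.03 to -0.27, unadjusted p = 0.00345, limma adjusted p = 0.254). The second probe set, 1425723_at, read 1298, 1096 and 1103 on the Nfkbiz arrays, against 1444, 1823 and 1530.0 on the luciferase arrays. It too had every Nfkbiz array below every luciferase array, with a log2 difference of -0.45 ± 0.15 (95% interval -0.78 to -0.13, unadjusted p = 0.0117, limma adjusted p = 0.341). Both probe sets were designed from the same sequence record and followed each other over the 6 arrays (Pearson r = 0.90), so they are not independent measurements. Leaving out 1 array at a time kept the difference of 1451807_at between -0.81 and -0.53 and that of 1425723_at between -0.53 and -0.36, with a limma adjusted p of at least 0.178 and 0.205 over all alternatives tried.

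The genes whose log2 intensities followed the Nr1i2 probe sets most closely over the 6 arrays were sought among 13303 genes. For 1451807_at they were Scarb1, the HDL receptor gene (Pearson r = 0.997), Slc7a2, a cationic amino acid transporter gene (0.987), and Son, a splicing cofactor gene (0.982). For 1425723_at they were Ckap5 (0.993), which encodes a microtubule-binding protein, Aldh4a1 (0.987), an enzyme gene of proline breakdown, and Pim3 (0.984), a kinase gene. The top genes of the probe sets were not shared. The r values cover 6 points that include the group difference, and they are given as a description.

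Nr1i3 encodes the constitutive androstane receptor CAR, a close relative of PXR, which shares many of its target genes and regulates phenobarbital-type induction. Its probe set 1425392_a_at read 2919, 3737 and 2426 on the Nfkbiz arrays, against 3262, 4212 and 2309 on the luciferase arrays. The groups overlapped over most of their range. The difference was -0.09 ± 0.23 (95% interval -0.59 to 0.41, limma adjusted p = 0.917), and the interval in percent of the luciferase level runs from -33.5 to 33.3. The ratio of Nr1i3 to Nr1i2 within each array was compared as well. Its log2 value averaged 1.22 ± 0.38 in Nfkbiz livers and 0.66 ± 0.55 in luciferase livers (SD, n = 3 each), a difference of 0.56 ± 0.39, and the groups did not separate (exact two-sided permutation p = 0.3, adjusted p = 0.5 over 2 receptor pairs, smallest possible p = 0.1). Leaving out the third luciferase array gave 0.25, and leaving out the second Nfkbiz array gave 0.36.

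Rxra encodes RXRα, the RXR form most abundant in liver and the partner that most of the other receptors need. Its probe set 1454773_at read 3309, 2414 and 3244 on the Nfkbiz arrays, against 3487, 3784 and 4528 on the luciferase arrays. The groups did not overlap, though the first Nfkbiz and the first luciferase array lay close together. The difference was -0.40 ± 0.16 (95% interval -0.76 to -0.04, unadjusted p = 0.0319, limma adjusted p = 0.431), and leaving out the third luciferase array gave -0.30 and leaving out the second Nfkbiz array -0.25.
The second Rxra probe set, 1425762_a_at, read 1163, 791 and 1145 on the Nfkbiz arrays, against 1181, 1350.0 and 1137 on the luciferase arrays. The second Nfkbiz array was the lowest and the other arrays lay in 1 range, with a difference of -0.26 ± 0.18 (limma adjusted p = 0.634) that was -0.08 at the smallest, without the second Nfkbiz array. The third probe set, 1430497_at, was below the filter, at 10.2, 8.85 and 19 on the Nfkbiz arrays and 10.7, 3.94 and 4.42 on the luciferase arrays, and was not tested. Averaging the 3 probe sets turned the sign, to 0.14 ± 0.22 (limma adjusted p = 0.884), since the dim probe set counts there as much as the bright ones.

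Nr1h3 encodes the liver X receptor LXRα, which binds oxysterols and raises cholesterol efflux and lipogenic genes, and which is made both in hepatocytes and, strongly, in Kupffer cells, the resident macrophages of the liver. Its only probe set, 1450444_a_at, read 1771, 1952 and 1554 on the Nfkbiz arrays, against 1415, 1546 and 1520.1 on the luciferase arrays. The lowest Nfkbiz array was just above the highest luciferase array. The difference was 0.23 ± 0.14, a ratio of 1.17 (95% interval -0.07 to 0.53, unadjusted p = 0.123, limma adjusted p = 0.583), and 0.24 without the third luciferase array. Kupffer cell markers read higher in the same livers. Their summed intensity was 47063 to 61795 on the Nfkbiz arrays and 32041 to 44254 on the luciferase arrays, without overlap. Of the 12 markers measured, limma called 0 after adjustment and 10 at an unadjusted p under 0.05, all higher, where 4.76% of all genes tested were higher at that level. Clec4f, a lectin gene restricted to Kupffer cells, had a difference of 1.07 ± 0.28 and Spic, a transcription factor gene of iron-handling macrophages, of 0.35 ± 0.32. Recruited macrophage markers spanned 17617 to 22535 on the Nfkbiz arrays and 12677 to 26616 on the luciferase arrays, and limma called 0 of 8, also at an unadjusted p under 0.05. Lymphocyte and neutrophil markers spanned 1721 to 3816 on the Nfkbiz arrays and 1286 to 1781 on the luciferase arrays, which overlap, with a median difference of 0.63. Of the 8 measured, limma called 0 after adjustment, and 4 were higher and 0 lower at an unadjusted p under 0.05. In bulk liver RNA, a change in the number of cells of a type and a change in RNA per cell cannot be told apart, and the part of Kupffer or other immune cells in the Nr1h3 difference was not tested.

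Ppard encodes PPARδ, a widely made fatty acid receptor that drives fatty acid oxidation. Its probe set 1439797_at read 124, 84.5 and 61.1 on the Nfkbiz arrays, against 139.5, 167 and 103 on the luciferase arrays. The first Nfkbiz array lay within the range of the luciferase arrays and the others below it. The difference was -0.64 ± 0.35, close in size to that of Nr1i2 but with a wider interval (95% interval -1.42 to 0.15, limma adjusted p = 0.555), and it lay between -0.90 and -0.39 when 1 array was left out. The second probe set of Ppard, 1425703_at, was below the filter at 3.05, 3.37 and 4.76 on the Nfkbiz arrays and 4.97, 5.06 and 3 on the luciferase arrays, and was not tested.

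Pparg encodes PPARγ, the main regulator of fat cell differentiation, whose level in hepatocytes is raised in many models of fatty liver. Probe set 1420715_a_at read 290.2, 248 and 375 on the Nfkbiz arrays, against 373, 295 and 373 on the luciferase arrays. The groups overlapped, with a difference of -0.20 ± 0.21 (95% interval -0.68 to 0.27, limma adjusted p = 0.769). The log2 ratio of Pparg to Ppard averaged 1.80 ± 0.73 in Nfkbiz livers and 1.37 ± 0.52 in luciferase livers (SD, n = 3 each). Its difference of 0.43 ± 0.52 was smaller than the spread (exact two-sided permutation p = 0.5, adjusted p = 0.5 over the 2 pairs), and it was 0.02 without the third Nfkbiz array.

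Thrb encodes the thyroid hormone receptor β, the main form in hepatocytes. Its probe set 1422202_at read 156, 199.8 and 198 on the Nfkbiz arrays, against 124, 189 and 141 on the luciferase arrays. It had the highest positive difference of the receptor probe sets, 0.30 ± 0.25, with groups that overlapped (95% interval -0.26 to 0.87, limma adjusted p = 0.704).

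Esr1 encodes the estrogen receptor α, which in liver acts on lipid and lipoprotein genes. Its brightest probe set, 1460591_at, read 2078, 1314 and 1381 on the Nfkbiz arrays, against 1486, 1777 and 1480.0 on the luciferase arrays. The first Nfkbiz array was the highest of all 6 and the other Nfkbiz arrays were the lowest, and the difference was -0.02 ± 0.19 (95% interval -0.43 to 0.40, limma adjusted p = 0.983). Probe set 1435663_at, designed from the same sequence record, read 775, 466 and 586 on the Nfkbiz arrays and 406, 504 and 700.2 on the luciferase arrays, with a difference of 0.19 ± 0.24 (limma adjusted p = 0.82). The dimmest, 1421244_at, read 133, 99.1 and 92 on the Nfkbiz arrays and 98.9, 164 and 67.2 on the luciferase arrays (0.05 ± 0.38, limma adjusted p = 0.973). In the 3 Esr1 probe sets the first Nfkbiz array was the highest of its group each time, while the luciferase arrays took a different order in 1435663_at than in the other probe sets, and the sign of each difference turned when single arrays were left out.

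Nr2f6 encodes the orphan receptor EAR2 of the COUP-TF family, which has no established natural ligand and mostly represses transcription. Probe set 1460648_at read 1376, 1549 and 1646 on the Nfkbiz arrays, against 1394, 1154 and 2052 on the luciferase arrays. All Nfkbiz arrays lay within the range of the luciferase arrays (0.03 ± 0.20, 95% interval -0.42 to 0.48, limma adjusted p = 0.972). Probe set 1460647_a_at read 796, 859 and 776 on the Nfkbiz arrays and 733, 905 and 928 on the luciferase arrays, again inside the luciferase range (-0.07 ± 0.15, limma adjusted p = 0.896). The Nr2f6 probe sets followed each other loosely over the 6 arrays (Pearson r = 0.22), and those of Rxra more closely (0.77).

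**Figure D2:**
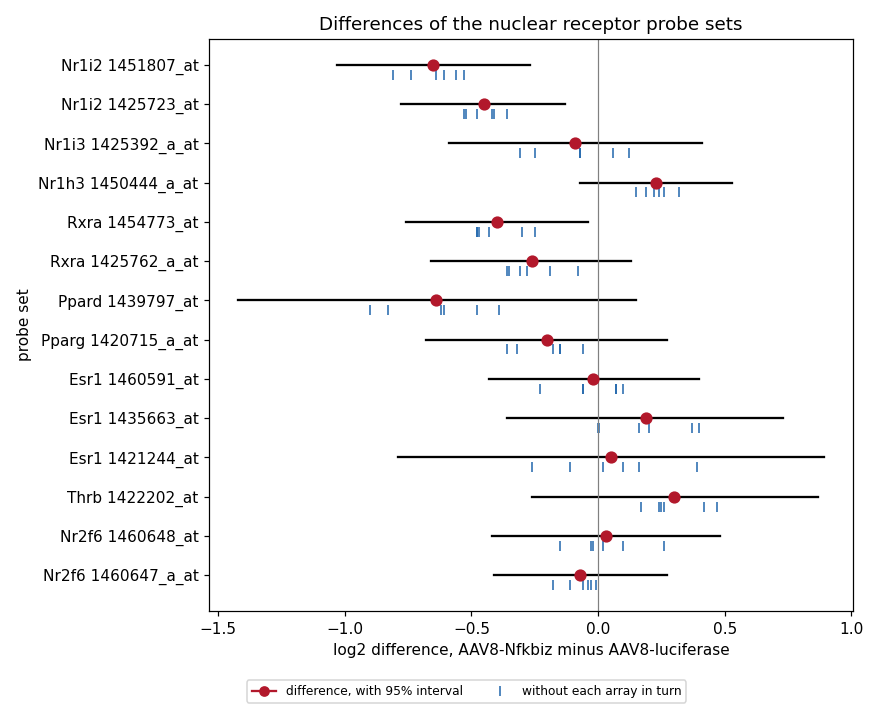
Log2 difference (AAV8-Nfkbiz over AAV8-luciferase) of the 14 probe sets tested (dots) with 95% intervals (lines), and the difference with each array left out in turn (ticks under the line). The intervals of both Nr1i2 probe sets and of Rxra 1454773_at lie under 0 before adjustment for the number of tests, and the others include 0.

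The receptors' partners, coregulators, target genes and ligand handling were read from 8 lists, with each gene represented by its brightest probe set. By limma 0 genes of these lists passed after adjustment, where 0.0901% of the 13312 genes tested did. Counts at an unadjusted p under 0.05 are therefore given beside the share of all genes tested, 4.76% higher and 6.65% lower with Nfkbiz. The median of a list is set beside -0.02 for all genes tested.

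Among 17 partner and related nuclear receptors, 1 was higher and 7 were lower at an unadjusted p under 0.05, and the median difference was -0.17. Nr0b2, the gene of the corepressor-like receptor SHP that damps bile acid synthesis, had a difference of -1.24 ± 0.24 (limma adjusted p = 0.133), and passed without the third luciferase array at -1.55 (limma adjusted p = 0.0127). Over the 18 alternatives Nr0b2 passed in 2, and its limma adjusted p reached 0.485. Rxrg, the RXR gene mostly made outside hepatocytes, read 226, 320.0 and 183 on the Nfkbiz arrays and 113, 84 and 144 on the luciferase arrays, a difference of 1.09 ± 0.30 (limma adjusted p = 0.262) that ran against the sign of Rxra. The retinoic acid receptor gene Rarg had a difference of -0.66 ± 0.19 and the orphan receptor gene Rora of -0.49 ± 0.16, and neither passed. Other Rora probe sets differed in size, among them 1424035_at at -0.02 ± 0.40, 1436325_at at -0.05 ± 0.16 and 1441085_at at -1.60 ± 0.63.

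Coactivator and corepressor genes had mostly negative differences, 16 of 18, where 6948 of all 13312 genes tested had a negative one. Their median was -0.19, and 0 were higher and 4 lower at an unadjusted p under 0.05. The genes of the list were read on the same arrays, so their signs are not independent, and the count of signs was not tested. Ppargc1a, which encodes the coactivator PGC-1α used by PPARs, thyroid hormone receptors and CAR, had a difference of -1.24 ± 0.21 (limma adjusted p = 0.0759), and it passed when 1 probe set per gene was tested (limma adjusted p = 0.0449). Over the 18 alternatives Ppargc1a passed in 3, and its limma adjusted p lay between 0.0408 and 0.432. Tbl1x, a subunit of the corepressor complex, had a difference of -0.55 ± 0.19 and Crebbp, a histone acetyltransferase gene, of -0.41 ± 0.17. Ncoa1, the coactivator SRC-1, had a difference of -0.48 ± 0.18, and its probe set 1418594_a_at one of -0.47 ± 0.18. With the mean of its probe sets Ncoa1 stood at 0.05 ± 0.41, and that mean takes each probe set regardless of the filter. None of these last genes passed.

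Targets of CAR and PXR had 1 gene higher and 8 lower of 24 at an unadjusted p under 0.05, and a median of -0.16. The transporter genes Abcb1a (-1.18 ± 0.26), Abcc3 (-0.41 ± 0.12) and Abcc2 (-0.44 ± 0.13) and Alas1 (-0.83 ± 0.25), the rate-limiting enzyme of haem synthesis, had the smallest p-values of the list, with limma adjusted p-values between 0.171 and 0.3. These genes were picked by p-value from a list with 8 lower and 1 higher, so their sign is not set against that of Nr1i2. The 1 higher gene was Gadd45b (0.58 ± 0.22, limma adjusted p = 0.409). Enzyme genes often used as readouts of these receptors, named after their values were seen, had both signs, and none passed. Cyp3a11, a PXR target among the brightest probe sets of the arrays at 33295 to 41435, stood at 0.07 ± 0.12, the related Cyp3a25 at -0.33 ± 0.14 and Cyp3a13 at 0.25 ± 0.16, and Cyp2b10, a CAR target, at 0.22 ± 0.57. Cyp2b10 read 120.4, 662 and 726 on the Nfkbiz arrays against 280.0, 434 and 301 on the luciferase arrays, so its Nfkbiz arrays lay on both sides of the luciferase range.

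LXR targets had 2 genes higher and 5 lower of 17 at an unadjusted p under 0.05, with a median of -0.03. The lower ones included the lipogenic genes Fasn, the fatty acid synthase (-1.33 ± 0.21, limma adjusted p = 0.0651, and 0.0423 with 1 probe set per gene), and Srebf1, its regulator (-0.65 ± 0.16, limma adjusted p = 0.238). Over the 18 alternatives Fasn passed in 4, and its limma adjusted p lay between 0.0384 and 0.433. Cyp7a1, the rate-limiting enzyme of bile acid synthesis and an LXR target in mice, had a difference of 1.43 ± 0.41 (limma adjusted p = 0.275), which was 1.99 and passed without the third luciferase array (limma adjusted p = 0.0177). That was the only 1 of the 18 alternatives in which this Cyp7a1 probe set passed, and its limma adjusted p reached 0.58. The dimmer Cyp7a1 probe set 1422100_at had a difference of 1.59 ± 0.29 on all arrays and did not pass either (limma adjusted p = 0.0912). Smpdl3a, a phosphodiesterase gene of the list, stood at 0.42 ± 0.13 without passing. The sterol transporter genes of the list, standard LXR readouts named after their values were seen, did not pass. Abca1, the cholesterol efflux pump, stood at -0.02 ± 0.14 and Abcg1 at -0.07 ± 0.17, and Abcg5 and Abcg8, whose products form the biliary sterol transporter, at -0.43 ± 0.19 and -0.53 ± 0.19. Abcg8 read 1398, 1074 and 823 on the Nfkbiz arrays, against 1489, 1695 and 1478 on the luciferase arrays, without overlap.

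For PPARγ targets, 2 of 11 genes were higher and 3 lower at an unadjusted p under 0.05, with a median of 0.06. Pck1, the gluconeogenic enzyme gene (-0.47 ± 0.14), and Vldlr, a lipoprotein receptor gene (-0.73 ± 0.28), had negative differences, and the other Pck1 probe sets stood at -0.53 ± 0.31 for 1439617_s_at and at 0.54 ± 0.41 for the dim 1455209_at. Targets shared by PPARδ and PPARα had the highest median of the 8 lists, 0.28, with 3 of 14 genes higher and 1 lower at an unadjusted p under 0.05. Acot1, an acyl-CoA thioesterase gene (1.18 ± 0.35), and Pdk4, which restrains glucose oxidation (0.73 ± 0.23), had positive differences. The lipid droplet gene Plin2, which is on both PPAR lists, also had a positive difference (0.41 ± 0.13). Angptl4, a lipase inhibitor gene that is on both lists too, had a negative difference (-0.56 ± 0.18). No gene of either PPAR list passed under any alternative tried.

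Thyroid hormone receptor targets had 1 gene higher and 6 lower of 14 at an unadjusted p under 0.05, with a median of -0.15 that was -0.40 without the third luciferase array. Klf9, a transcription factor gene induced by thyroid hormone and by glucocorticoids, had a difference of -0.85 ± 0.14 (limma adjusted p = 0.0749), and it passed after quantile normalization (limma adjusted p = 0.022). Over the 18 alternatives Klf9 passed in 4, and its limma adjusted p reached 0.471. Thrsp, a lipogenic gene named for its response to thyroid hormone, had a difference of -1.47 ± 0.31 (limma adjusted p = 0.154) and passed with the mean of its probe sets (limma adjusted p = 0.0328). Over the 18 alternatives Thrsp passed in 2, and its limma adjusted p lay between 0.02 and 0.505. Fasn and Ppargc1a, described above, are the other genes of this list with the smallest p-values. Dio1, the liver deiodinase gene that is a common readout of thyroid hormone action and was named after its value was seen, had a difference of 0.39 ± 0.23.

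Genes of ligand supply and clearance had 2 higher and 3 lower of 17 at an unadjusted p under 0.05, with a median of 0.02. Hsd17b2, which inactivates estradiol, had a difference of 0.71 ± 0.13 (limma adjusted p = 0.0919), and Cyp7b1, which hydroxylates oxysterols, of 0.96 ± 0.22 (limma adjusted p = 0.207). Cyp26a1, which breaks down retinoic acid, the ligand of RARs, had a difference of -1.29 ± 0.24 (limma adjusted p = 0.0996), and Slc16a10, an amino acid and thyroid hormone transporter gene, of -0.50 ± 0.13 (limma adjusted p = 0.253). Of the other Slc16a10 probe sets, the brighter 1434592_at also had a negative difference (-0.66 ± 0.18), and the dim 1440569_at and 1453675_at had positive ones (0.43 ± 0.47 and 0.58 ± 0.41).

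**Figure D3:**
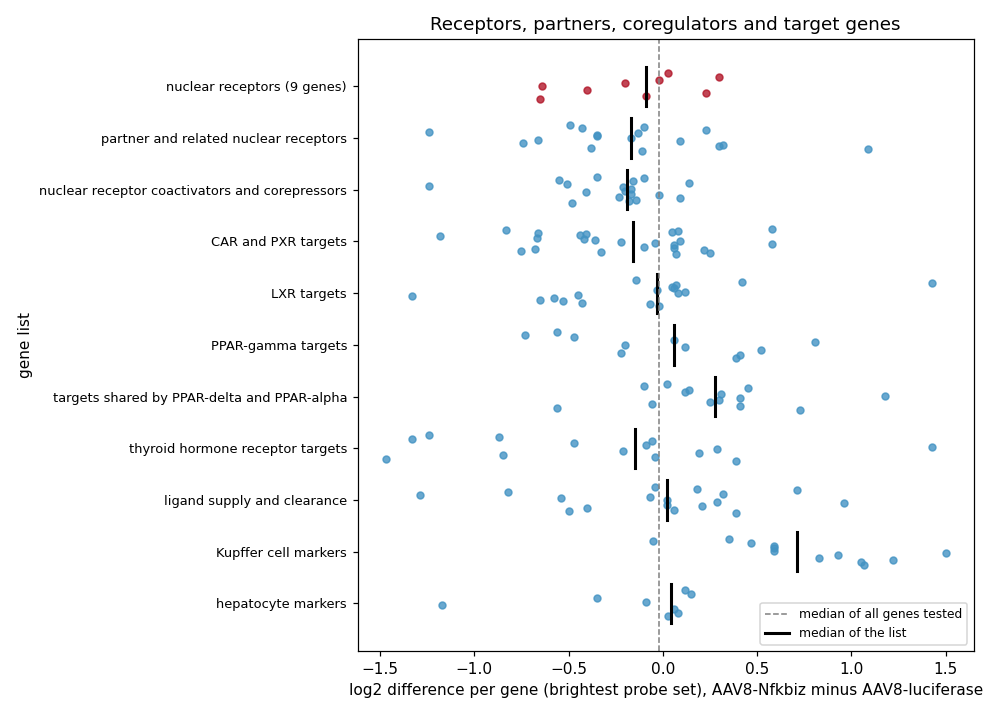
Log2 difference per gene (dots, brightest probe set), AAV8-Nfkbiz minus AAV8-luciferase, for the 9 receptor genes, the 8 lists and the Kupffer cell and hepatocyte markers; black bars are list medians and the dashed line is the median of all 13312 genes tested. List medians run from -0.19 for coactivators and corepressors to 0.28 for shared PPARδ and PPARα targets, and the Kupffer cell markers stand at 0.71.

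**Figure D4:**
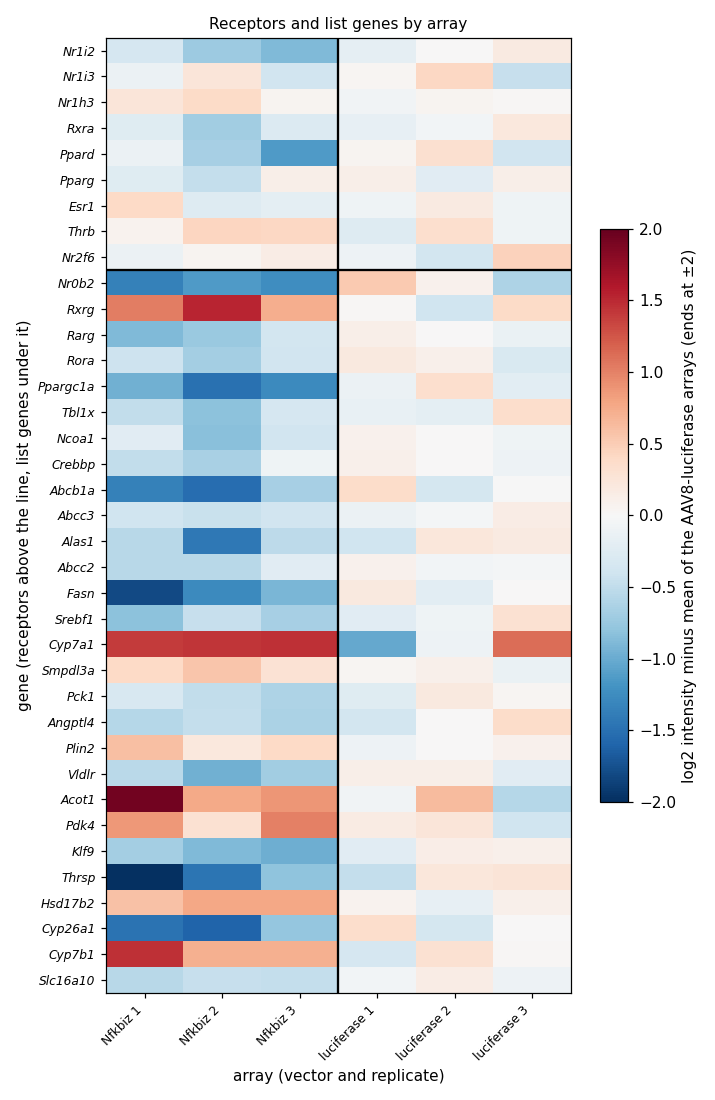
Log2 intensity on each array minus the mean of the AAV8-luciferase arrays, AAV8-Nfkbiz arrays at the left, for the 9 receptor genes (above the line) and the list genes named by rule (under it); colours end at ±2. The list genes were picked for their small p-values and the receptors by symbol, so the sizes of the blocks are not compared.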

How the data were processed

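The deposited table holds linear signal intensities that the authors computed with MAS5, per the submitters' processing notes, which name no version. The mean of the middle of each array's intensities, with 2% cut at each end, lay between 495.1 and 496.3, so the arrays had been scaled to one target. The labels name no scan batch. They call the arrays separate samples without naming the animals, so p-values measure only the spread between those samples. Names came from GEO's annotation of the platform: 34945 of 45037 had 1 symbol, 932 had several and 9160 are unnamed here. By Entrez identifier, 34741 of those with 1 symbol were found in RefSeq (GRCm38.p6).

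No pseudocount was added before log2. Probe sets in the lowest 40% by mean (intensity under 47.4) were left out. The remaining 27022 were fitted with limma 3.58.1 in R 4.3.3 (lmFit, then eBayes with its trend option), two-sided, with Benjamini-Hochberg adjustment over all of them and a threshold of 0.05. Intervals are 95% from the moderated fit. The fit was tested on data simulated with the residual spread of each probe set, with 200 probe sets changed. It recovered 28.2% of log2 changes of 1 and 71.2% of log2 changes of 2. Smaller changes, such as those of the receptors, were not simulated. For the lists each gene was represented by its brightest probe set, 13312 genes in all. Receptor pairs were compared with exact permutation tests; the pair with Nr1h2 could not be formed. Alternatives were 3 normalizations, an added intensity of 16, 3 filters, no intensity trend, array weights, a replicate block, 2 ways to combine probe sets, and each array left out. All receptor probe sets are named; of each list, up to 4 genes with the smallest unadjusted p are named. The receptors and lists were chosen with earlier results of these data known. The number of arrays limits the precision.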

Additional observations from a re-analysis of the deposited data

How the results depend on the processing

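Of the receptor probe sets, 0 were called higher or lower by limma under any of the 18 alternatives. When 1 array was left out, between 1 and 4 of the 14 had an unadjusted p under 0.05, all lower. The differences of Nr1i2, Nr1h3, Ppard, Pparg and Thrb kept their sign in every alternative that held them. For Ppard 1439797_at and Nr1i2 1425723_at these were 16 of the 18. Signs turned for Esr1 1460591_at (0.01 after quantile normalization, 0.02 after median centring, 0.07 with the mean of probe sets, -0.23 to 0.10 with 1 array left out), Esr1 1421244_at (-0.14 with array weights, -0.26 to 0.39), Esr1 1435663_at (-0.0024 to 0.40), Nr2f6 1460648_at (-0.02 with the mean of probe sets, -0.15 to 0.26), Nr1i3 (-0.31 to 0.12 with 1 array left out), Rxra 1454773_at (0.14 with the mean of probe sets) and Ncoa1 (0.05 with the mean of probe sets). The contrast of Nr1i3 over Nr1i2 lay between 0.25 and 0.76 and that of Pparg over Ppard between 0.02 and 0.72 with 1 array left out.

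Counts over all probe sets, 5 higher and 14 lower, moved with the settings, and limma without the intensity trend called 0 in either direction, with 2429 at an unadjusted p under 0.05. Lower calls were 22 after quantile normalization and with 16 added, 9 after median centring and with the mean of probe sets, 34 (12 higher) with the lowest 60% left out and 57 (20 higher) with array weights. There were 9 higher calls with 1 probe set per gene. Leaving out 1 array gave 3 to 12 higher and 5 to 21 lower calls: 8 in all without the second and 11 without the first Nfkbiz array, and 33 without the third luciferase array. List genes were called lower as follows, always against 0. Thyroid hormone receptor targets had 1 after quantile or loess normalization and with the mean of probe sets, 2 with 1 probe set per gene and 3 with the lowest 60% left out or array weights. LXR targets and coregulators had 1 each with the lowest 60% left out, array weights or 1 probe set per gene, and partner receptors had 1 with array weights. Hsd17b2 was the 1 ligand gene called higher, with array weights. With 1 array left out, LXR and thyroid hormone receptor targets had 0 to 1 call in each direction (Fasn lower without the third Nfkbiz array, Cyp7a1 higher without the third luciferase array) and partner receptors 0 to 1 lower (Nr0b2, without the third luciferase array). The causes of these moves were not tested.

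With the replicate numbers as a block, limma called 22 probe sets lower, 6 higher, 0 receptor probe sets and 1 thyroid hormone receptor target, Thrsp. Deviations from the group means of same-numbered arrays correlated at -0.03, 0.07 and 0.01. Arrays with different numbers correlated between -0.10 and 0.09. So few values cannot decide whether the numbers pair the arrays, and the labels do not say.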
